A study of Mus musculus with 16 samples.

Results

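The miR-130 and miR-301 family was represented on the arrays by 5 of 611 mouse miRNAs: miR-130a-3p, miR-130b-3p, miR-130b-5p, miR-301a-3p and miR-301b-3p. These were all rows of the scanner output named miR-130a, miR-130b, miR-301a or miR-301b with any arm suffix, so membership followed from the name alone. This rule was set with earlier results of these data known. MiRNA levels were measured in total RNA of whole mouse lung in a model of allergic airways disease (AAD), in which ovalbumin (OVA, an egg white protein) served as the allergen. Sensitised mice had received 50 μg of OVA with 1 mg of Alhydrogel, an aluminium adjuvant, by intraperitoneal injection on day 0, and non-sensitised mice the adjuvant without OVA. The 4 groups comprised PBS/PBS (non-sensitised, challenged with PBS, 2 arrays), PBS/OVA (non-sensitised, challenged with OVA, 4 arrays), OVA/OVA (sensitised and challenged, the AAD group, 6 arrays) and OVA/OVA DEX (as OVA/OVA, with dexamethasone, a synthetic glucocorticoid, 4 arrays). Intranasal challenges, with 10 μg of OVA where OVA was given, ran from day 12 to day 15, and the lungs were taken 24 hours after the last one. Dexamethasone was injected at 3 mg/kg every second day from day 11, and the labels give PBS as the treatment of the other groups. The mice were BALB/c, which the methods describe as 8 to 12 weeks old. The labels do not say whether the arrays of a group came from separate mice, so the p-values below measure the spread between these samples, which may in part be technical.

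MiRNAs are short RNAs that guide the silencing complex to messenger RNAs, chiefly through the seed, the bases from position 2 to position 8 counted from the 5′ end. MiRNAs with an identical seed are grouped in a family because their predicted targets overlap. Members of the miR-130 and miR-301 family are known to repress PPARγ (miR-130a and miR-130b), the homeobox genes GAX and HOXA5 in endothelial cells (miR-130a) and NKRF, a repressor of NF-κB target genes (miR-301a).

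The mature sequences of 4 of the 5 members were found in RefSeq (build GRCm38.p6). They are shown because the shared seed, in capitals, is what makes these miRNAs a family, and because the members that behaved differently on the arrays differ only outside it. miR-721, which lies outside the family names but has the same seed, is shown with them.
miR-130a-3p: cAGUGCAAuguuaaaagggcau
miR-130b-3p: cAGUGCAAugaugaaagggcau
miR-301a-3p: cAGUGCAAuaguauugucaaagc
miR-721: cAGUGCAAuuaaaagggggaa
miR-130b-5p, the opposite arm of the miR-130b hairpin, carries another seed.
miR-130b-5p: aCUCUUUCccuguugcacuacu
The mature forms of miR-130a-3p and miR-130b-3p have the same length of 22 bases and differ at 2 positions, U11A and A13G, given as the base of miR-130a-3p, the position from the 5′ end and the base of miR-130b-3p. In all, 7 of 1738 mature mouse entries in RefSeq have the family seed, and 4 of these 7 are on the array. In GRCm38.p6, miR-130a-3p lies at chr2:84741116-84741137 on the minus strand, within no other annotated gene. miR-130b-3p lies at chr16:17124071-17124092 and miR-130b-5p at chr16:17124109-17124130, both on the minus strand. The hairpins of miR-130b and miR-301b are 257 bases apart within the span of the gene 2610318N02Rik. miR-301a-3p lies at chr11:87113054-87113076 on the plus strand, within the span of Ska2, a gene of the spindle and kinetochore. miR-721 lies at chr5:136375777-136375797 on the minus strand, within the span of Cux1, a homeobox transcription factor gene. Whether these positions are exonic or intronic was not analysed here.

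The signal of a miRNA on an array was the sum over its probes of the background-subtracted spot intensity. It was divided by a scaling factor for that array, the 75th percentile of the miRNAs detected on every array, and is given below as scaled signal in intensity units. Differences between groups are given on the log2 scale, tested with limma over all 16 arrays and adjusted by the Benjamini-Hochberg method over the 266 miRNAs tested. A miRNA was called when its adjusted p was under 0.05 and its change at least 2-fold. Probes bind with different strength, so levels are compared between groups and never between members. Before scaling, the summed miRNA signal was 795089 and 942144 on the PBS/PBS arrays. It ranged over 494814 to 720095 for PBS/OVA, 253333 to 734606 for OVA/OVA and 501545 to 640549 for OVA/OVA DEX. One array stood apart from the others: on OVA/OVA DEX 4 the median coefficient of variation between spots of a probe was 25.9%, against 5.69% to 10.6% on the other 15 arrays. Differences of the members from OVA/OVA DEX are therefore given with and without it. Both PBS/PBS arrays lay on slide 1, whereas each of the other 3 groups was spread over both slides.

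Of the 5 members, miR-130a-3p, miR-130b-3p and miR-301a-3p were detected on all 16 arrays and entered the tests, and miR-130b-3p was the only one called in any of the 6 comparisons. OVA/OVA exceeded each of the other 3 groups in miR-130b-3p, by 2.18-fold (PBS/PBS), 2.16-fold (PBS/OVA) and 3.03-fold (OVA/OVA DEX). miR-130a-3p and miR-301a-3p, with the same seed, lay within 1.18-fold of every group they were compared with in these 3 comparisons. miR-130b-5p and miR-301b-3p were detected on 2 OVA/OVA arrays and on no array of another group, and did not pass the filter for testing.

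**Figure D1:**
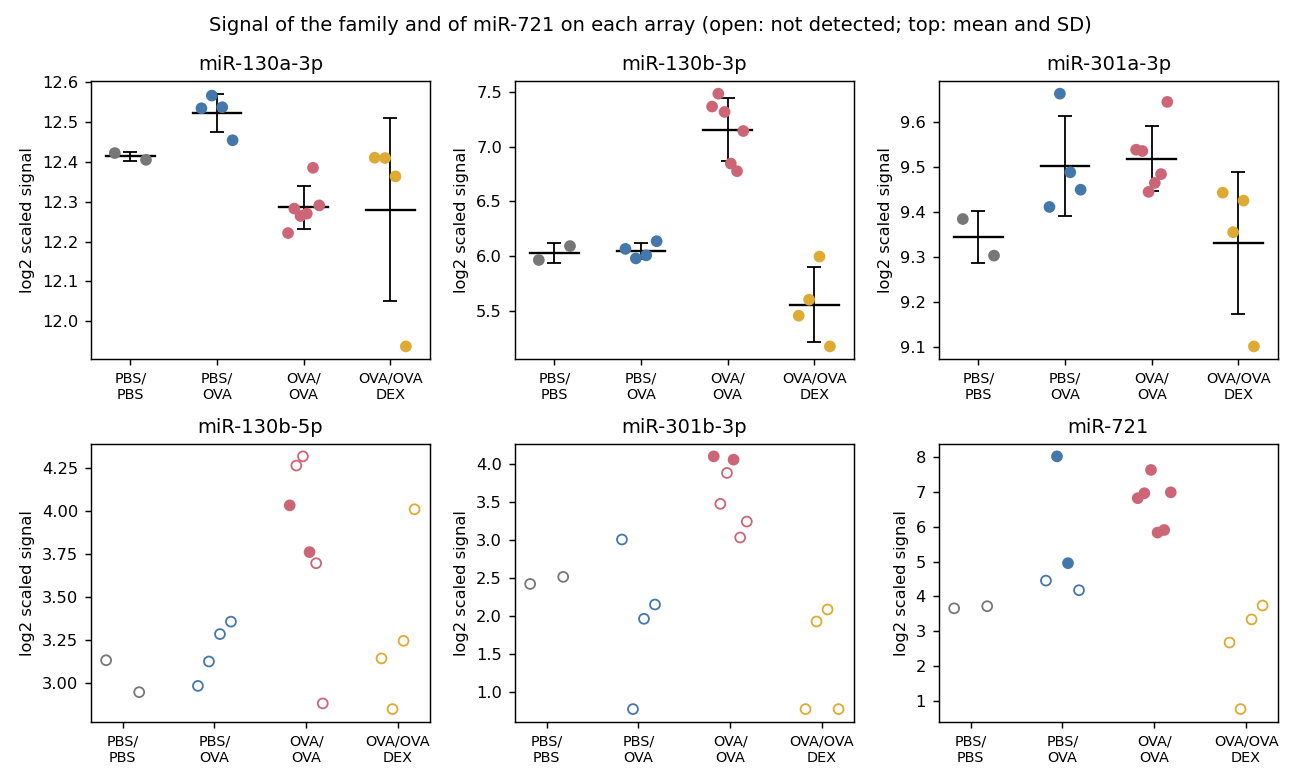
Log2 scaled signal (vertical axis) of the 5 family members and of miR-721 on each array, by group (horizontal axis). Points are arrays, open points arrays on which the miRNA was not detected, and lines in the top row the mean and SD; the 6 OVA/OVA points of miR-130b-3p lie above all 10 other arrays, while those of miR-130a-3p and miR-301a-3p lie near the other groups.

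The scaled signal of miR-130b-3p was 62.5 and 68.2 on the PBS/PBS arrays and 67.0, 63.1, 64.3 and 70.4 on the PBS/OVA arrays. On the OVA/OVA arrays it was 165, 179, 160, 115, 110 and 141, and on the OVA/OVA DEX arrays 43.9, 48.6, 63.9 and 36.1. All 6 OVA/OVA arrays thus lay above every array of the other groups, and the PBS/PBS and PBS/OVA arrays lay close together. The log2 means were 6.03 ± 0.09 (SD, n = 2) for PBS/PBS and 6.05 ± 0.07 (SD, n = 4) for PBS/OVA. They were 7.16 ± 0.29 (SD, n = 6) for OVA/OVA and 5.56 ± 0.34 (SD, n = 4) for the dexamethasone group. The spread was wider in the 2 groups with AAD, treated or not, than in the 2 non-sensitised groups; this difference in spread was not tested.

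Comparison of OVA/OVA with PBS/PBS asks how the lung with AAD differs from the lung that never met the allergen. Here the log2 difference of miR-130b-3p, OVA/OVA minus PBS/PBS, was 1.13 (SE 0.20, 95% confidence interval 0.69 to 1.57, limma adjusted p = 0.00221). Across all miRNAs tested, 16 of 266 (6.02%) were called higher and 26 (9.77%) in either direction, so 1 called member of 3 stands against that background. Ordered from the most increased in OVA/OVA to the most decreased, miR-130b-3p ranked 27 of 266. Each of its 2 probes showed the difference, by 1.14 and 1.12. On slide 1, the only slide with both groups, the difference was 1.40. This call depended on the scaling between arrays. With no scaling, the difference was 0.03, but the median of all 266 miRNAs then moved to −1.11, and relative to that median miR-130b-3p was 1.15 higher. The difference was 0.59 with the percentile over all miRNAs, 0.55 with control spots and 0.62 with quantile normalization, and was not called with any of them. By construction, 1 scaling factor per array leaves the value relative to the median the same, whichever factor is used. That value moved to 0.82 with quantile normalization and to 0.48 with normexp background correction.

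Comparison of OVA/OVA with PBS/OVA asks what sensitisation adds among challenged lungs. The difference of miR-130b-3p was 1.11 (SE 0.16, 95% confidence interval 0.76 to 1.46, limma adjusted p = 0.000344). In this comparison 9 of 266 miRNAs (3.38%) were called higher and 14 (5.26%) in either direction, and miR-130b-3p ranked 13 in that order. The difference was 1.43 on slide 1 and 0.92 on slide 2, and 1.14 and 1.09 for its 2 probes. Without scaling, it was 0.59 against a median of all miRNAs of −0.56, and it was not called. It was 0.87 with the percentile over all miRNAs, 0.51 with control spots and 0.91 with quantile normalization, again not called. With normexp background correction it was 0.74, or 0.43 relative to the median, and was not called either.

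Comparison of OVA/OVA with OVA/OVA DEX asks how dexamethasone changes the lung with AAD. This was the largest of the differences of miR-130b-3p, with OVA/OVA higher by 1.60 (SE 0.16, 95% confidence interval 1.25 to 1.95, limma adjusted p = 1.65e-05). Here 25 of 266 miRNAs (9.4%) were called higher in OVA/OVA and 34 (12.8%) in either direction, and miR-130b-3p ranked 15. Without OVA/OVA DEX 4 the difference was 1.47 (limma adjusted p = 8.66e-05) and 29 miRNAs were called. It was 2.11 on slide 1 and 1.22 on slide 2, and 1.62 and 1.59 for its 2 probes. The difference remained above 1, and called, without scaling, where it was 1.31. With normexp background correction it was 0.77 and not called.

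Among the groups without untreated AAD, miR-130b-3p was not called. PBS/OVA and PBS/PBS differed by 0.02 (95% confidence interval −0.45 to 0.48, limma adjusted p = 0.997), a comparison in which 1 of 266 miRNAs (0.376%) was called. OVA/OVA DEX was 0.47 below PBS/PBS (95% confidence interval of the difference −0.94 to −0.01, limma adjusted p = 0.649, unadjusted p = 0.0474) and the arrays of the 2 groups overlapped. In that comparison limma called 0 of 266 miRNAs (0%), while 19 had an unadjusted p under 0.05. The exact Mann-Whitney test cannot pass with 2 arrays in PBS/PBS, so nothing is read from its 0 calls. OVA/OVA DEX was 0.49 below PBS/OVA (95% confidence interval −0.87 to −0.11, limma adjusted p = 0.135, unadjusted p = 0.0152), where 2 of 266 miRNAs (0.752%) were called. Without OVA/OVA DEX 4 these differences were −0.34 and −0.36. Neither of these 2 differences passed after adjustment.

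**Figure D2:**
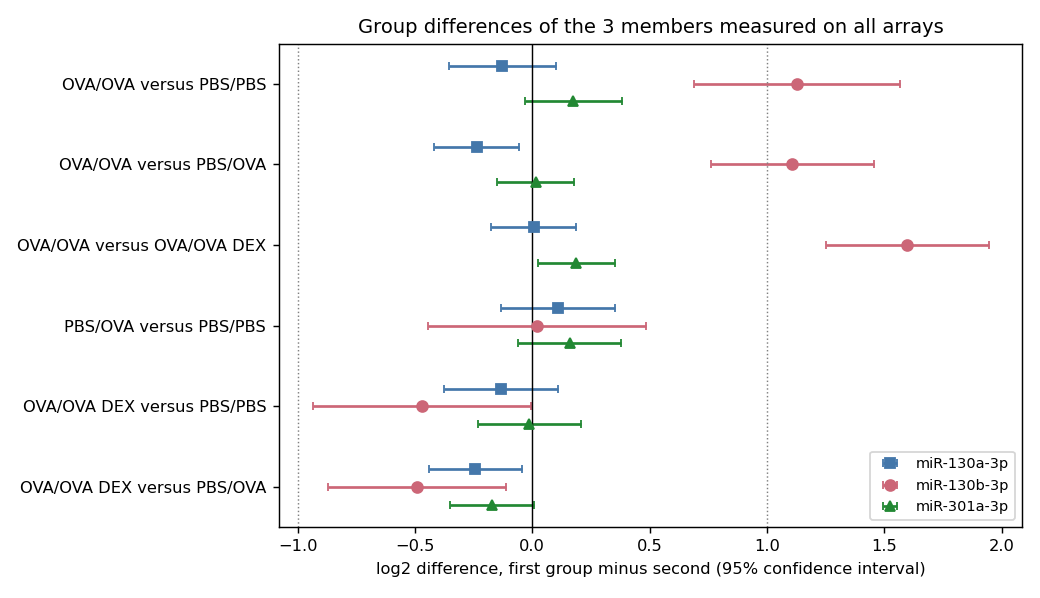
Log2 difference between groups, first minus second (horizontal axis), for miR-130a-3p, miR-130b-3p and miR-301a-3p in 6 comparisons (vertical axis). Symbols are limma estimates, bars 95% confidence intervals and dotted lines a 2-fold change; miR-130b-3p passes the 2-fold line, at 1.13, 1.11 and 1.60, only in the 3 comparisons with OVA/OVA.

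miR-130a-3p differs from miR-130b-3p at 2 bases. Its scaled signal was 5489 and 5425 in PBS/PBS, 5934, 6066, 5945 and 5613 in PBS/OVA, 4776, 4983, 4919, 4940, 5350 and 5011 in OVA/OVA, and 5445, 5442, 5271 and 3921 in OVA/OVA DEX. Every OVA/OVA array lay below every PBS/PBS and PBS/OVA array, while OVA/OVA DEX overlapped with OVA/OVA. The log2 means were 12.41 ± 0.01 (SD, n = 2), 12.52 ± 0.05 (SD, n = 4), 12.29 ± 0.05 (SD, n = 6) and 12.28 ± 0.23 (SD, n = 4) in the same order. The difference of OVA/OVA from PBS/OVA was −0.24 (SE 0.08, 95% confidence interval −0.42 to −0.06, limma adjusted p = 0.0470), a 1.18-fold decrease that passed the p threshold but not the 2-fold one. In this comparison 84 of 266 miRNAs (31.6%) passed the p threshold and the arrays of 53 (19.9%) did not overlap. OVA/OVA was higher in 29 (10.9%) of the 266 and lower in the rest of the 53, as for miR-130a-3p. Its adjusted p ranged from 0.00208 to 0.104 when 1 array at a time was left out, the lowest being that without OVA/OVA DEX 4. Against PBS/PBS, the arrays of 137 of 266 miRNAs (51.5%) did not overlap, those of 69 (25.9%) with OVA/OVA higher and the rest with it lower. There the difference of miR-130a-3p was −0.13 (95% confidence interval −0.36 to 0.10, limma adjusted p = 0.366). Against OVA/OVA DEX it was 0.01 (95% confidence interval −0.17 to 0.19, limma adjusted p = 0.963), and −0.11 without OVA/OVA DEX 4 (limma adjusted p = 0.0890).

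miR-301a-3p shares the first 9 bases with miR-130a-3p and then differs from it. Its scaled signal was 668 and 632 in PBS/PBS, 681, 810, 718 and 699 in PBS/OVA, 743, 742, 697, 706, 716 and 800 in OVA/OVA, and 696, 655, 687 and 549 in OVA/OVA DEX. The OVA/OVA arrays lay above all PBS/PBS and OVA/OVA DEX arrays, in the latter case by a narrow margin, and overlapped with PBS/OVA. The log2 means were 9.34 ± 0.06 (SD, n = 2), 9.50 ± 0.11 (SD, n = 4), 9.52 ± 0.07 (SD, n = 6) and 9.33 ± 0.16 (SD, n = 4). OVA/OVA differed from PBS/PBS by 0.17 (95% confidence interval −0.03 to 0.38, limma adjusted p = 0.176), from PBS/OVA by 0.02 (95% confidence interval −0.15 to 0.18, limma adjusted p = 0.883) and from OVA/OVA DEX by 0.19 (95% confidence interval 0.02 to 0.35, limma adjusted p = 0.0521). The last value was 0.11 without OVA/OVA DEX 4 (limma adjusted p = 0.177), and in that comparison 142 of 266 miRNAs (53.4%) had an adjusted p under 0.05 and the arrays of 39 (14.7%) did not overlap with OVA/OVA higher. The direction of these small differences changed with the scaling. With no scaling, for example, miR-301a-3p was 0.92 lower in OVA/OVA than in PBS/PBS. Over the 3 members tested, the median difference of OVA/OVA was 0.17 from PBS/PBS, 0.02 from PBS/OVA and 0.19 from OVA/OVA DEX, beside medians over all 266 miRNAs of −0.02, −0.04 and −0.09.

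Whether members with one seed changed unequally can be asked without any scaling between arrays, since the ratio of 2 miRNAs on one array does not depend on it. The height of such a ratio depends on the probes, so only its shift between groups is read. The log2 ratio of miR-130b-3p to miR-130a-3p was −5.13 ± 0.33 (SD, n = 6) on the OVA/OVA arrays. It was −6.39 ± 0.10 (SD, n = 2) for PBS/PBS, −6.48 ± 0.12 (SD, n = 4) for PBS/OVA and −6.72 ± 0.25 (SD, n = 4) for OVA/OVA DEX. It was higher on all 6 OVA/OVA arrays than on any other array. The shift of OVA/OVA was 1.26 from PBS/PBS, 1.35 from PBS/OVA and 1.59 from OVA/OVA DEX. The ratio of miR-130b-3p to miR-301a-3p was likewise higher on every OVA/OVA array, by 0.95, 1.09 and 1.41. In exact two-sided permutation tests over arrays, both ratios reached the smallest p that 6 against 4 arrays allow (p = 0.00952) against PBS/OVA and OVA/OVA DEX, or 0.0171 after Benjamini-Hochberg adjustment over 9 tests. Against the 2 PBS/PBS arrays the smallest exact p possible is 0.0714, which both ratios reached, so no difference from PBS/PBS could pass 0.05. Without OVA/OVA DEX 4, the shifts against OVA/OVA DEX were 1.58 and 1.36 (exact permutation test, adjusted p = 0.0357 for both).

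The 2 members that were not called also shifted against each other, by much less. The ratio of miR-130a-3p to miR-301a-3p was lower in OVA/OVA than in PBS/PBS by 0.30 (exact p = 0.0714, the smallest possible). It was lower than in PBS/OVA by 0.25 (exact p = 0.00952, adjusted p = 0.0171) and lower than in OVA/OVA DEX by 0.18 (exact p = 0.0190, adjusted p = 0.0286), with overlapping arrays in the last case, or by 0.22 without OVA/OVA DEX 4 (exact permutation test, adjusted p = 0.0357). The last shift did not hold throughout. In exact permutation tests it did not pass with normexp background correction or with the deposited values (adjusted p = 0.0571 for both), without OVA/OVA DEX 1, 2 or 3 (adjusted p = 0.0714 for each), or with the median instead of the mean over the spots of a probe (0.14, adjusted p = 0.124), an alternative added once the values were known. With the main settings, all 3 pairs of members differed in their change between OVA/OVA and PBS/OVA, and between OVA/OVA and OVA/OVA DEX with the exceptions just given, whereas 0 of 3 passed between OVA/OVA and PBS/PBS. The 3 ratios come from 3 miRNAs, so any 2 of them fix the other. Among single miRNAs, 31.6% and 53.4% had an adjusted p under 0.05 against PBS/OVA and OVA/OVA DEX. The share of pairs among all tested miRNAs was not computed, so these counts are not read as particular to the family.

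**Figure D3:**
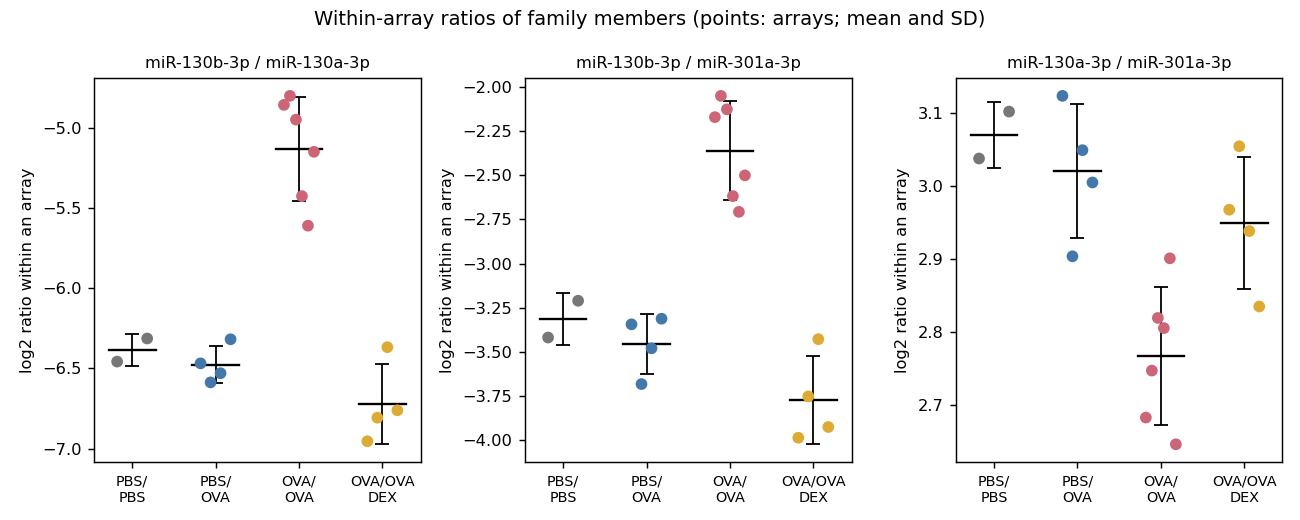
Log2 ratio of 2 family members on the same array (vertical axis), by group (horizontal axis), for the 3 pairs of members detected on all arrays. Points are arrays and lines the mean and SD; both ratios with miR-130b-3p are higher on all 6 OVA/OVA arrays than on the other 10, and the height of a panel depends on the probes and is not compared between panels.

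miR-130b-5p, the arm processed from the same hairpin as miR-130b-3p, was close to the detection limit. It was detected on OVA/OVA 1 and 4, with scaled signals of 16.4 and 13.5, whereas the other 4 OVA/OVA arrays gave 19.2, 19.9, 12.9 and 7.36 and arrays of the other groups 7.19 to 16.1. The groups overlapped, and 0 of 315 spots of its 4 probes lay well above background. No fold change is given, since 4 of the 6 OVA/OVA arrays and all others were below detection.

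miR-301b-3p, encoded beside miR-130b, was detected on the same 2 arrays, OVA/OVA 1 and 4. Its scaled signal was 17.2, 11.1, 14.8, 16.7, 8.19 and 9.47 in OVA/OVA, against 5.36 and 5.71 in PBS/PBS, 8.04, −1.82, 3.90 and 4.44 in PBS/OVA and −1.37, 3.80, 4.25 and −2.47 in OVA/OVA DEX. In scaled signal, all 6 OVA/OVA arrays lay above the 10 others, of which 3 gave values below 0, that is, below their local background. Before scaling, OVA/OVA (4.53 to 23.2) overlapped with PBS/PBS (8.20 and 10.6) and PBS/OVA (−1.82 to 9.84), but not with OVA/OVA DEX (−2.38 to 4.28). The shares of non-overlapping arrays given for miR-130b-3p cover the 266 miRNAs tested, of which miR-301b-3p was not one. Only 7 of 316 spots lay well above background. On 4 of the 6 OVA/OVA arrays and on all others it was below detection, so no fold change is given. OVA/OVA 1 and 4, the arrays on which miR-130b-5p and miR-301b-3p were detected, were also the brightest of their group before scaling, with summed signals of 710107 and 734606 against 253333 to 410416 on the other 4. The part of brightness in this detection was not tested. Both miRNAs would enter a test with a wider filter only through OVA/OVA, the group in which they were detected, so no p-value is given for them.

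miR-721 has the family seed but another name and locus. It was detected on all 6 OVA/OVA arrays, with scaled signals of 113, 124, 197, 56.8, 59.9 and 126. It was detected on PBS/OVA 2 and 3 (258 and 31.0) but not on PBS/OVA 1 and 4 (21.9 and 18.1), and on no PBS/PBS or OVA/OVA DEX array, where it measured −0.39 to 13.4. Each array without detection was taken at the higher of its measured signal and the lowest signal of a detected miRNA. OVA/OVA was then 7.97-fold higher than PBS/PBS, where this was the measured signal, and 10.9-fold higher than OVA/OVA DEX. These folds are no lower limits, since they depend on the processing. Over the other settings, the log2 difference ran from 1.27 to 3.74 against PBS/PBS and from 0.66 to 4.30 against OVA/OVA DEX. miR-721 passed the filter only through OVA/OVA, so no p-value is read from its differences. With normexp background correction, the difference of OVA/OVA from OVA/OVA DEX was 0.66 on the log2 scale, in place of 4.05. PBS/OVA 2 gave the highest value of all arrays. With it, the difference of OVA/OVA from PBS/OVA was 1.29, and without it 2.16.

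The miR-148 and miR-152 family was examined because its seed overlaps that of miR-130 and miR-301 by 6 bases, read 1 position further from the 5′ end, as the mature sequence of miR-148a-3p shows.
miR-148a-3p: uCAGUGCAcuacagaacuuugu
These miRNAs are known repressors of DNA methyltransferase genes. None of its 3 members was called in a comparison with OVA/OVA, since all changed by less than 2-fold. miR-148a-3p of OVA/OVA exceeded that of PBS/PBS by 0.38 (limma adjusted p = 0.0144), that of PBS/OVA by 0.45 (limma adjusted p = 0.000802) and that of OVA/OVA DEX by 0.34 (limma adjusted p = 0.00342), with no overlap between arrays. miR-152-3p was lower by 0.29, 0.24 and 0.24 (limma adjusted p = 0.0485, 0.0324 and 0.0183). miR-148b-3p differed by −0.02, −0.04 and −0.13, none of which passed (limma adjusted p = 0.217 to 0.908). The 2 members that passed the p threshold thus differed in opposite directions. Over all 266 miRNAs, 25.6%, 31.6% and 53.4% passed that threshold in these comparisons. The arrays of 25.9%, 10.9% and 14.7% did not overlap, with OVA/OVA higher. Against PBS/PBS, miR-152-3p did not pass without OVA/OVA DEX 4 (limma adjusted p = 0.0542), and its difference was 0.035 with normexp background correction. Without OVA/OVA DEX 4, the differences from OVA/OVA DEX were 0.35 for miR-148a-3p and −0.25 for miR-152-3p. The direction of miR-148a-3p turned in all 3 comparisons with control spot scaling and in 2 of 3 with no scaling.

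The profile of each member over the 16 arrays was then set against those of the 263 tested miRNAs outside the family. The miRNAs most like miR-130b-3p were miR-155-5p, which is induced on activation of lymphocytes and macrophages (Pearson's r = 0.963), miR-18a-5p of the miR-17 to miR-92a cluster, which is linked to proliferation (r = 0.947), and miR-7a-5p (r = 0.944). These correlations are descriptions over 16 arrays that share the 4 groups and the scaling. Among the 6 OVA/OVA arrays alone the values were 0.983, 0.991 and 0.966, and the arrays with the lowest miR-130b-3p, OVA/OVA 4 and 5, were also lowest for the other 3. In OVA/OVA all 3 exceeded PBS/PBS, by 1.99, 1.19 and 1.11 on the log2 scale. As they were picked by their likeness to miR-130b-3p on these same arrays, no p-value is read from these differences. miR-130a-3p was most like miR-429-3p, an epithelial miRNA of the miR-200 family (r = 0.900), miR-103-3p (r = 0.841) and miR-181d-5p (r = 0.775). miR-301a-3p was most like miR-34a-5p, a target of p53 (r = 0.908), let-7i-5p (r = 0.879) and miR-324-5p (r = 0.831). Among the 6 OVA/OVA arrays alone, these values fell to 0.61, 0.44 and 0.20 for miR-130a-3p and to 0.39, −0.01 and 0.67 for miR-301a-3p. The 3 lists share no miRNA, but each holds only 3 of 263, so nothing is read from this. Between miR-130a-3p and miR-130b-3p, Pearson's r was −0.14 and Spearman's rho −0.41, and r was −0.76 over the 15 arrays without OVA/OVA DEX 4. Between miR-130a-3p and miR-301a-3p, r was 0.47 and rho 0.05, and r was −0.08 without that array, so the positive value rested on it. Between miR-130b-3p and miR-301a-3p, r was 0.59 and rho 0.58, with r at 0.44 without it.

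**Figure D4:**
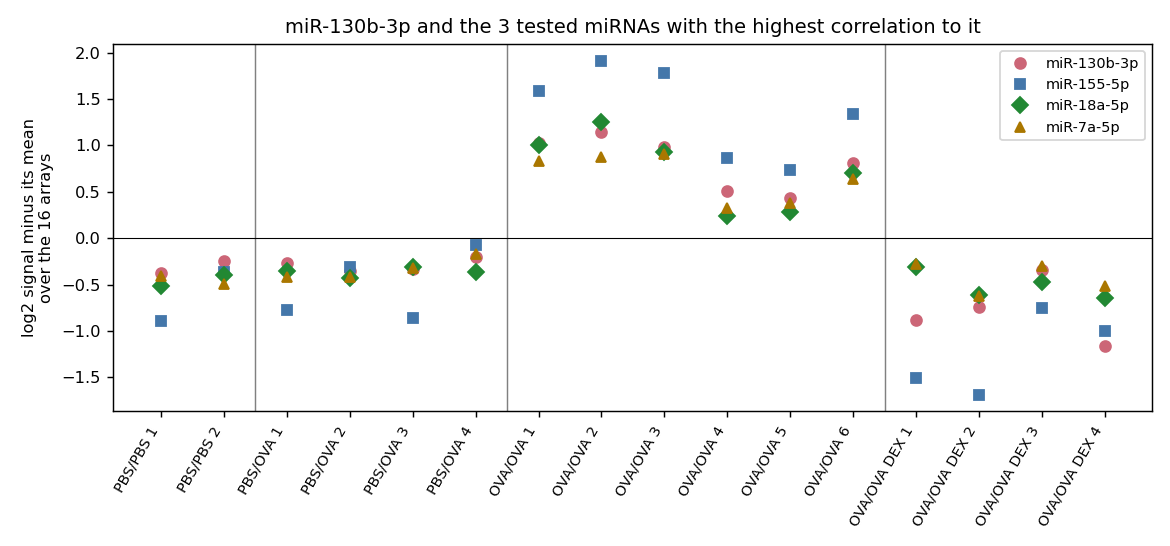
Log2 signal minus its mean over the 16 arrays (vertical axis) on each array (horizontal axis) for miR-130b-3p and the 3 tested miRNAs most correlated with it, miR-155-5p, miR-18a-5p and miR-7a-5p (r = 0.963, 0.947 and 0.944). All 4 lie above 0 on the 6 OVA/OVA arrays and below 0 on the 10 others.

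The summed signal of haematopoietic marker miRNAs was, like miR-130b-3p, higher on every OVA/OVA array than on the arrays of the other groups. In whole lung, a higher level cannot be told apart as more cells of a type or more RNA per cell. Of 7 haematopoietic miRNAs on the array, 6 were detected on all arrays and miR-150-3p on none. Their summed scaled signal was 33179 to 48935 for OVA/OVA, 21016 to 23586 for PBS/PBS, 16419 to 24378 for PBS/OVA and 18525 to 27289 for OVA/OVA DEX. Of the 6 tested, OVA/OVA was called higher for 2 in the comparison with PBS/PBS, 3 with PBS/OVA and 2 with OVA/OVA DEX, and 0 were called lower. Of all 266 miRNAs, 6.02%, 3.38% and 9.4% were called higher in these comparisons and 3.76%, 1.88% and 3.38% lower. Against PBS/PBS, miR-142-5p (0.47) and miR-150-5p (0.30) did not pass the p threshold (limma adjusted p = 0.0968 and 0.367). miR-155-5p is itself on this list. miR-223-3p, a miRNA of granulocytes and other myeloid cells, rose in OVA/OVA by 1.22 over PBS/PBS (limma adjusted p = 0.00112), by 1.12 over PBS/OVA (limma adjusted p = 0.000321) and by 0.51 over OVA/OVA DEX (limma adjusted p = 0.0143). OVA/OVA DEX minus PBS/PBS was 0.71 for miR-223-3p (limma adjusted p = 0.209) and −0.47 for miR-130b-3p (limma adjusted p = 0.649). It was also negative for the other haematopoietic miRNAs tested. The values were −0.61 for miR-155-5p, −0.45 for miR-342-3p, −0.14 for miR-150-5p, −0.13 for miR-142-3p and −0.096 for miR-142-5p. None of these differences passed after adjustment. The log2 ratio of miR-130b-3p to the haematopoietic sum on the same array was −8.21 ± 0.10 (SD, n = 6) for OVA/OVA, −8.41 ± 0.21 (SD, n = 2) for PBS/PBS, −8.31 ± 0.19 (SD, n = 4) for PBS/OVA and −8.88 ± 0.15 (SD, n = 4) for OVA/OVA DEX. This ratio was chosen after the values had been seen and was not tested. The 2 endothelial miRNAs of the miR-126 hairpin summed to 30626 to 40948 in OVA/OVA and 38261 to 48573 in the other groups, and 0 were called. Epithelial miRNAs, of which 8 of 9 were detected, summed to 8606 to 10512 over all arrays, and 0 of the 8 tested were called. Striated muscle miRNAs summed to 669 to 2236 in OVA/OVA and 1780 to 2989 in the other groups, with miR-206-3p and miR-499-5p not detected on any array, and 2 of the 5 tested were called lower than in PBS/PBS. Not every miRNA of the planned erythroid list was matched by name on the array, so the erythroid sum is incomplete. The 2 erythroid miRNAs that were matched summed to 100325 to 136429 in OVA/OVA DEX and 37072 to 87446 in the other groups. Both were called lower in OVA/OVA than in OVA/OVA DEX. Ciliated cell miRNAs summed to 4036 to 5419 in OVA/OVA and 3649 to 4820 elsewhere, with miR-449b not detected on any array. Of the 6 ciliated cell miRNAs tested, 1 was called lower in the comparison with PBS/PBS and 2 higher in that with OVA/OVA DEX. Smooth muscle miRNAs summed to 2310 to 2822 and, elsewhere, to 2489 to 3641, with 0 of 3 called in these comparisons. The part of these cell types in the differences of the family was not tested.

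**Figure D5:**
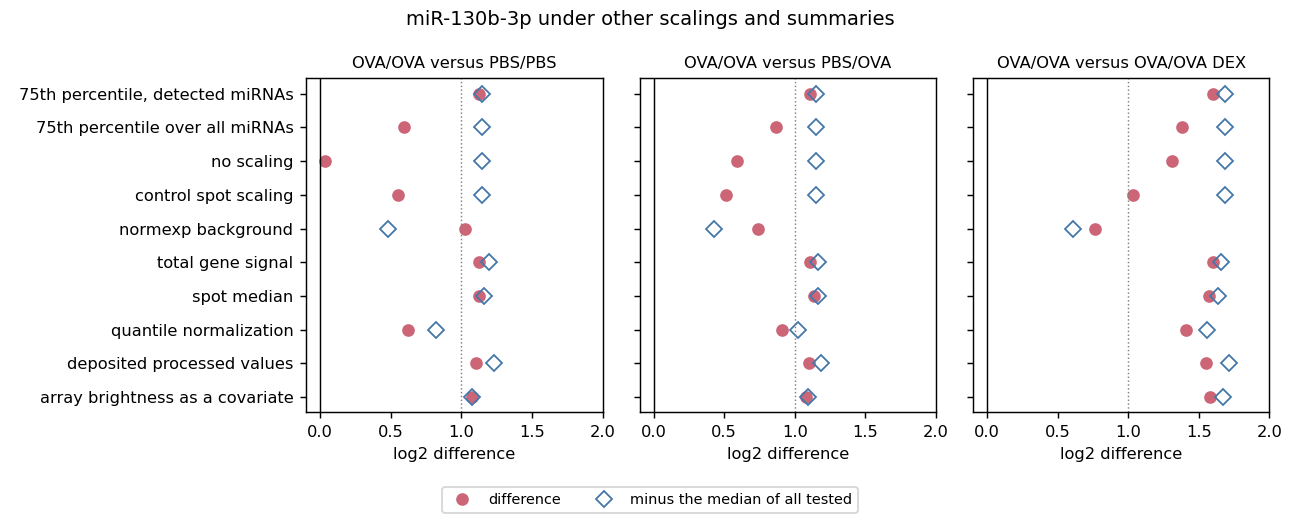
Log2 difference of miR-130b-3p (horizontal axis) between OVA/OVA and each of the other groups (panels) under different scalings and summaries (vertical axis). Filled points are the difference, open diamonds the difference minus the median of all miRNAs tested, and the dotted line a 2-fold change; with no scaling the filled points are at 0.03, 0.59 and 1.31, and the diamonds at 1.15, 1.15 and 1.69.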

How the data were processed

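The authors hybridised total lung RNA to Agilent 1-colour miRNA arrays and deposited the Feature Extraction 10.7.3.1 output, in which the intensity of each spot is background-subtracted and not normalized between arrays. Per the file headers the design names build mm9. The authors also deposited log2 values, which match the log2 total gene signal minus a shift per array, within 0.15, for 138 of 672 entries (3 members); how the shift was set and the scale's centring are not given in the sources used here. These values served as an alternative only.

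Control and outlier spots were left out (0 spots were saturated), spots averaged per probe, probes summed per miRNA, and arrays scaled by the 75th percentile over the 206 miRNAs detected throughout. Values under 1.71, the median over arrays of the lowest detected signal, were set to 1.71 before log2. Group means were fitted over 16 arrays with limma 3.58.1 (R 4.3.3), for the 266 miRNAs that at least 1 group showed on all of its arrays; the code was tested on simulated data. Where leaving out an array leaves PBS/PBS with 1, that array is assumed to vary like the other groups. Ratios were tested with exact permutation tests (scipy 1.17.1, Python 3.11.15). The study lists 2-fold changes and its methods name the Mann-Whitney test, which is an alternative here. No 2 of the 120 array pairs held identical signals. The labels do not say whether replicate numbers pair the samples, and the main tests used no pairing. In their deviations from group means, same-numbered arrays correlated at −0.78 to 0.41 in 18 pairs, 3 of them over 0.1. Such deviations cancel out within a group, so these correlations cannot exclude a pairing. Normexp (offset 50) was run on the median spot signal, since the output holds no mean signal. Adding 50 to each spot shrinks the log2 differences of dim miRNAs by construction. The 2 probes of miR-130b-3p had group means of 4.07 to 6.51 in log2 scaled signal. How much the offset took from each difference was not tested.

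Members, marker lists, comparisons and alternatives were chosen with earlier results of these data known. Named miRNAs are the family, arrayed miRNAs with its seed, the miR-148 and miR-152 family, and the 3 miRNAs most correlated with each tested member. RefSeq gave sequences for 476 of 611 arrayed miRNAs. The number of arrays limits the precision.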

Additional observations from a re-analysis of the deposited data

Results flagged for a closer look

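Of 9 groups of 4 or 6 arrays examined for the 3 members detected on all arrays, 1 held an array far from the others. miR-130a-3p on OVA/OVA DEX 4 had a log2 scaled signal of 11.94, below the other 3 arrays of its group, and its gap to the nearest of them exceeded the limit of Dixon's test. Chance alone gives about 1 such array in 20 groups. On this array the coefficients of variation between spots were 51.8% and 74.0% for the 2 probes of miR-130a-3p, 63.2% and 59.1% for those of miR-130b-3p and 35.9% for 1 probe of miR-301a-3p. Taking the median over spots, chosen after the data had been seen, left the array at 11.79. The part of this spread in the value was not tested.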

How the results depend on the processing

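Leaving out 1 array at a time kept the count of called family members at 1 in each comparison with OVA/OVA and at 0 in the other 3, and miR-130b-3p stayed called, at 1.06 to 1.20 (PBS/PBS), 1.04 to 1.18 (PBS/OVA) and 1.47 to 1.75 (OVA/OVA DEX). The count for PBS/PBS was 0 with the percentile over all miRNAs, control spot scaling, quantile normalization and the exact Mann-Whitney test, which cannot pass with 2 arrays. With no scaling it was 1, but the called member was miR-130a-3p, at −1.22. For PBS/OVA it was 0 with the percentile over all miRNAs, no scaling, control spots, normexp and quantile normalization, and 2 with miRNAs detected on at least 1 array or no detection filter (adding miR-301b-3p) or without the 2-fold requirement (adding miR-130a-3p). For OVA/OVA DEX it was 0 with normexp and 2 with either wider filter, which added miR-301b-3p. As it was detected on OVA/OVA arrays only, its calls are no support. The cause of these changes was not tested. Array brightness, which was lowest on 4 of the 6 OVA/OVA arrays, limits what can be said of levels that are not relative to other miRNAs.

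With the replicate number as a block, which the labels do not say marks shared samples, miR-130b-3p was 1.27, 1.21 and 1.70 higher in OVA/OVA and its calls did not change, while the number of member pairs with unequal change between OVA/OVA and PBS/PBS rose from 0 to 3, in limma on the ratios in place of the permutation test. Over all 266 miRNAs, called counts across the alternatives ran from 0 to 156 (PBS/PBS), 2 to 31 (PBS/OVA) and 7 to 56 (OVA/OVA DEX), the 156 being with no scaling.

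Small differences that were not called changed sign as follows. For OVA/OVA minus PBS/PBS, miR-301a-3p was −0.36, −0.92 and −0.40 and miR-148a-3p −0.16, −0.72 and −0.20 with the percentile over all miRNAs, no scaling and control spots. miR-148b-3p was 0.36 with normexp, 0.18 with brightness as a covariate, 0.047 with the slide as a block, 0.064 with the replicate block and −0.052 to 0.033 with arrays left out, and miR-152-3p was 0.035 with normexp. For OVA/OVA minus PBS/OVA, miR-301a-3p was −0.22, −0.50 and −0.58 with those 3 scalings, −0.023 with quantile normalization, −0.0083 with the deposited values, −0.0072 with brightness, −0.0071 with the replicate block and −0.015 to 0.069 with arrays left out. miR-148a-3p was −0.067 without scaling and −0.15 with control spots, and miR-148b-3p 0.19 with normexp, 0.051 with brightness, 0.018 with the replicate block and −0.087 to 0.0069 with arrays left out. For OVA/OVA minus OVA/OVA DEX, miR-130a-3p was −0.21, −0.28 and −0.56 with the 3 scalings, −0.0012 with normexp, −0.0056 with the slide block, −0.021 with the replicate block and −0.11 to 0.049 with arrays left out. miR-301a-3p was −0.033, −0.10 and −0.38 with the 3 scalings, miR-148a-3p −0.23 with control spots and miR-148b-3p 0.070 with normexp. For PBS/OVA minus PBS/PBS, the percentile over all miRNAs and no scaling gave −0.18 and −0.47 for miR-130a-3p, −0.28 and −0.56 for miR-130b-3p and −0.14 and −0.42 for miR-301a-3p, and miR-130b-3p was also −0.28 with quantile normalization, −0.010 with the median over spots, −0.0094 with brightness and −0.045 to 0.083 with arrays left out. For OVA/OVA DEX minus PBS/PBS, normexp gave 0.26 for miR-130b-3p and 0.038 for miR-301a-3p, which was also 0.025 with the deposited values, 0.035 with the replicate block and −0.053 to 0.064 with arrays left out.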
